A study of Mus musculus with 6 samples.

Results

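The elongases and desaturases of fatty acids were followed in C2C12 cells, a clonal line of mouse myoblasts able to form myotubes. The members were the 10 rows of the deposited table, out of 21899 genes, whose symbol was Elovl1, Elovl4, Elovl5, Elovl6, Elovl7, Hsd17b12, Tecr, Fads1, Fads2 or Fads3. They were chosen by name and function, with earlier results of these data known. The labels give every library as wild type and call the cells myocytes. A PBS group of 3 libraries was the control, and a group of 3 libraries was kept with 5-fluorouracil (5-FU), at a dose of 5 µg per L and for 24 hours. 5-FU, an analogue of uracil, inhibits thymidylate synthase and enters RNA and DNA, and the series title sets its oral precursor, capecitabine, beside lipid metabolism. The label field for the cell line gives 5-FU replicates 2 and 3 a different final digit each, and their titles, which name C2C12, were followed.

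Long fatty acids are built at the endoplasmic reticulum by a cycle that adds carbon units to an acyl-CoA. An ELOVL enzyme condenses the acyl-CoA with malonyl-CoA and sets the rate and the chain length, a ketoacyl-CoA reductase (Hsd17b12), a dehydratase of the HACD family and an enoyl-CoA reductase (Tecr) then complete the cycle. Front-end desaturases of the FADS family place double bonds between the carboxyl end and an existing double bond, and in alternation with elongation they make arachidonic and docosahexaenoic acid from dietary precursors. In muscle these chains are part of the membrane phospholipids and sphingolipids. Several of these genes are known targets of SREBP-1, the transcription factor of lipogenesis.

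Of the 10 genes 3 were lower with 5-FU and 7 did not pass the test. All 10 log2 fold changes were negative in the main fit, with a median of -0.15, where the median over all 12135 genes tested was 0.0012. The values nearest 0 turned positive under some alternatives, that of Elovl4 in 8 of 15 and that of Elovl5 in 3 of 16. edgeR's quasi-likelihood test, at an adjusted p under 0.05, called Fads3, Hsd17b12 and Elovl7, all lower in 5-FU. Of all genes tested 7.14% were called in either direction, 3.26% lower and 3.87% higher. In 6 of the 10 members the 3 normalised counts of the 5-FU group lay below the 3 of the PBS group, where 14.2% of all genes tested did so, and in none did they lie above, as in 15% of all genes tested. Elovl7, the member with the fewest reads, fell to 0.496 of its PBS level, while Fads3 fell by 12.6% and Hsd17b12 fell by 11.6%. None of these 3 calls held in every refit that left out 1 library, and without PBS replicate 2 there was no called member. In cultures measured in bulk, fewer cells that express a gene and less RNA per cell cannot be told apart.

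The windows before the start sites of the 3 called genes are shown because these genes were lower together. They come from RefSeq (GRCm38.p6), were matched by symbol, and run 5′ to 3′ on the gene's strand up to the start site, or for Hsd17b12 up to the first exon in GENCODE M21. The build behind the deposited table is not given in the sources used here. Capitals mark CCAAT, the letters bound by NF-Y, and GGGCGG, the letters bound by Sp1, on either strand; the motifs do not overlap one another.
Elovl7, chr13:108214154-108214403, plus strand: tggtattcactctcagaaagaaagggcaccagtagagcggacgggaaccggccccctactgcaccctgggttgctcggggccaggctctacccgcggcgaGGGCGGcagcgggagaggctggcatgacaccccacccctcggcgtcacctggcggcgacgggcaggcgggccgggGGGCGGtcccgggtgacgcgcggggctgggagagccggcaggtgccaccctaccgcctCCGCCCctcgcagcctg
Fads3, chr19:10041298-10041547, plus strand: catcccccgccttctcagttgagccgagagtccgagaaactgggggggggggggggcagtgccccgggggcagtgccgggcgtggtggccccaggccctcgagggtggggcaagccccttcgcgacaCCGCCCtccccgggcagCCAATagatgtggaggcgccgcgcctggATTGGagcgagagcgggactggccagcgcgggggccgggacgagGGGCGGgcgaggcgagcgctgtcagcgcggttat
Hsd17b12, chr2:94157965-94158159, minus strand: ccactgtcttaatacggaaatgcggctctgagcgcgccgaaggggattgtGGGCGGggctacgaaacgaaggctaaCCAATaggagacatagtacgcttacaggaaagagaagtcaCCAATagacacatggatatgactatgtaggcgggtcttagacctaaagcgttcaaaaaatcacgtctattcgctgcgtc

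The Elovl7 window held 3 GGGCGG and no CCAAT. The Fads3 window held 2 of each, and that of Hsd17b12 held 2 CCAAT and 1 GGGCGG. Members that were not called held these motifs too. Elovl1 had 1 CCAAT and 5 GGGCGG in 1 window and 2 GGGCGG in another. Tecr had 3 CCAAT and 1 GGGCGG, Elovl5 2 CCAAT, Elovl4 2 GGGCGG and Fads2 1 GGGCGG, while Elovl6 had neither. The Elovl7 and Fads3 windows were rich in G and C (73.6% and 74.4%), against a median of 52.4% over all windows. That of Hsd17b12, over its full 250 bases, stood at 49.6%. Windows of the members that were not called ran from 55.6% (Elovl5) to 72.0% (Elovl1), so a high share was not particular to the called genes. Among all 32851 RefSeq windows of 250 bases, 33.8% held CCAAT and 32.7% held GGGCGG. The sterol element searched, TCACNCCAC, was in 1.05% of all windows and in none of those of the 9 members with an entry. For an element this rare, its absence from so few windows says nothing about regulation. In GENCODE M21 exons covered 243 of the 250 bases of the Fads2 window and 129 of those of the Elovl6 window, so that less sequence before the gene was searched there. The E-box CACGTG was in 6.02% of all windows and, among the members, in that of Elovl5. A match is a description of the letters and not a measured site.

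The level of each gene was read per transcript length, in TPM. Tecr was the most abundant with 349 ± 12 TPM in PBS (mean ± SD, n = 3, as in all that follows). Fads3 with 232 ± 8.5 TPM and Elovl1 with 223 ± 5.5 TPM came next, and their PBS libraries overlapped. Fads2 with 188 ± 6.1 TPM and Hsd17b12 with 187 ± 4.9 TPM overlapped as well. Fads1 stood at 121 ± 4.6 TPM and Elovl5 at 67.8 ± 3.2 TPM, each apart from its neighbours in this order. These 7 genes lay among the upper expressed genes, Elovl5 at the 88.1 percentile of all listed genes and Tecr at the 97.9 percentile. The other 3 condensing enzymes were far lower, with Elovl6 at 5.87 ± 0.71 TPM, Elovl4 at 3.26 ± 0.74 TPM and Elovl7 at 0.868 ± 0.12 TPM in PBS. The order in 5-FU differed only in that Elovl1, at 205 ± 4.1 TPM, stood above Fads3, at 202 ± 3.8 TPM, whose libraries again overlapped.

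**Figure D1:**
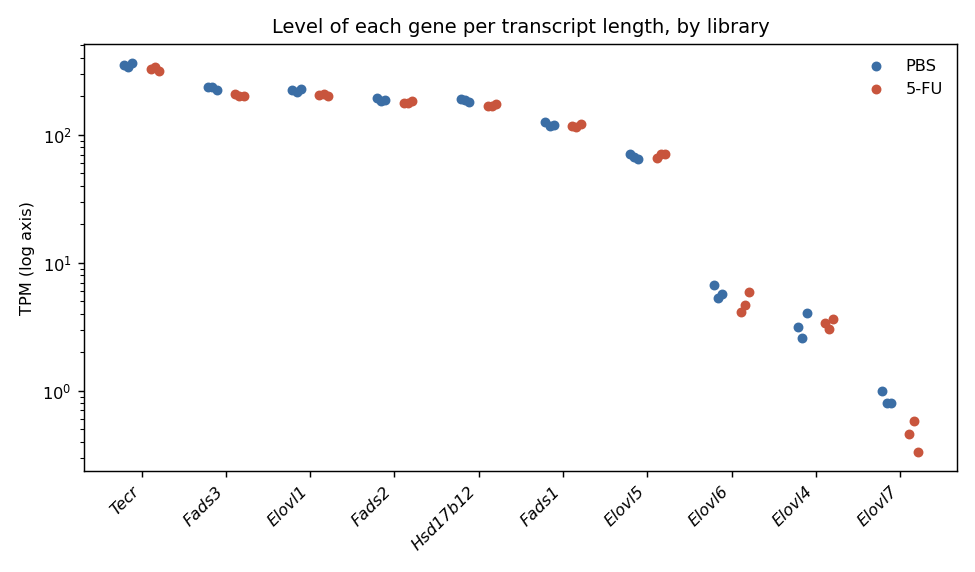
TPM of each of the 10 genes (log axis) in the 3 PBS and 3 5-FU libraries, 1 point per library, ordered by mean level. Tecr to Elovl5 lie above 60 TPM in every library, while Elovl6, Elovl4 and Elovl7 lie below 7 TPM.

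Elovl1 therefore made up most of the ELOVL transcripts: it took 74.2% ± 0.93 of their summed TPM in PBS and 72.6% ± 1.0 in 5-FU. Elovl5 took 22.5% ± 0.99 and 24.3% ± 0.70, while its own level was 67.8 ± 3.2 TPM in PBS and 68.7 ± 2.8 TPM in 5-FU. In their share of the family, the groups did not overlap for Elovl5, Elovl7, Fads1, Fads2 and Fads3. They overlapped for Elovl1, Elovl4 and Elovl6. Elovl6, Elovl4 and Elovl7 together were a minor part, with 1.95%, 1.08% and 0.288% in PBS. Over the FADS genes Fads3 took 42.9% ± 0.97 in PBS and 40.5% ± 0.80 in 5-FU, while Fads1 went from 22.4% ± 0.38 to 23.6% ± 0.53. Summed per step, the condensing enzymes stood at 301 ± 7.1 and 283 ± 5.4 TPM, the pair of reductases at 535 ± 9.9 and 496 ± 9.9 TPM, and the desaturases at 540 ± 16 and 500.3 ± 6.5 TPM, in PBS and 5-FU.

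Among the condensing enzymes, Elovl1 (ENSMUSG00000006390) elongates saturated and monounsaturated very long chains that enter sphingolipids. Its normalised counts were 159, 157 and 167 CPM in PBS and 147, 145 and 142 CPM in 5-FU (CPM, counts scaled by TMM library sizes, in the order of replicates 1, 2 and 3). Each 5-FU library lay below each PBS library. The log2 fold change was -0.16 (SE 0.043), and edgeR's adjusted p = 0.0503 stood just outside the threshold. DESeq2 gave an adjusted p = 0.0404 and edgeR with RLE factors gave 0.0476, while limma-voom gave 0.0503, so that whether Elovl1 was called depended on the tool, the scaling and the filter. An exon of Elovl1 overlaps one of Cdc20, a mitotic activator on the opposite strand, and no step that keeps the strand is described. Cdc20 stood at 153 ± 12 CPM in PBS and 146 ± 8.4 CPM in 5-FU (log2 fold change -0.069, edgeR adjusted p = 0.528).

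Elovl5 (ENSMUSG00000032349) elongates polyunsaturated chains between the FADS steps. It had 99.0, 95.5 and 93.6 CPM in PBS and 91.1, 95.8 and 97.3 CPM in 5-FU. The groups overlapped, and the log2 fold change of -0.021 had a 95% interval from -0.12 to 0.080 (edgeR adjusted p = 0.819). The sign turned positive with limma on TPM and without 5-FU replicate 1.

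Elovl6 (ENSMUSG00000041220) extends palmitate to stearate at the end of de novo lipogenesis. It had 18.2, 15.1 and 17.1 CPM in PBS and 12.1, 12.9 and 16.2 CPM in 5-FU. The third 5-FU library lay within the PBS range and the other two below it. The log2 fold change of -0.29 (SE 0.12) was not called (edgeR adjusted p = 0.150). Without 5-FU replicate 3 it was -0.43 with an adjusted p = 0.0480, and in the other 5 refits without 1 library the adjusted p lay higher, up to 0.333. GENCODE M21 places an antisense transcript, Gm35986, over an exon of Elovl6. With no step that keeps the strand described, reads of the shared stretch may come from either.

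Elovl4 (ENSMUSG00000032262), which makes the ultra-long chains known from retina and skin, had 88 to 106 counts per PBS library and 87 to 118 per 5-FU library. That was 4.73, 3.97 and 5.17 CPM in PBS and 5.09, 4.43 and 4.24 CPM in 5-FU. The groups overlapped fully. The log2 fold change was -0.0063 with a 95% interval from -0.33 to 0.32 (edgeR adjusted p = 0.987), so that moderate changes in either direction were not detectable at this depth.

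Elovl7 (ENSMUSG00000021696) elongates saturated chains. It was counted 31, 26 and 29 times in the PBS libraries and 17, 14 and 12 times in the 5-FU libraries. This was 1.48, 1.17 and 1.41 CPM against 0.733, 0.712 and 0.559 CPM, and each 5-FU library was below each PBS library. Elovl7 fell by 1.01 on the log2 scale (SE 0.25, 95% interval from -1.56 to -0.46, edgeR adjusted p = 0.0365). The exact Poisson interval of the lowest PBS count, 26, ran from 17.0 to 38.1 and that of the highest 5-FU count, 17, from 9.90 to 27.2 (95%, counting error only). These intervals overlapped. The call was lost in all 6 refits without 1 library, with adjusted p from 0.0635 to 0.112, while the log2 fold change stayed between -1.11 and -0.90. DESeq2 gave -1.02 and no adjusted p for this gene, which its filter on low counts left out. In the authors' deposited table of 186 selected genes Elovl7 was the only one of the 10, with mean TPM of 0.868 and 0.457, a log2 ratio of -0.93, p = 0.0205 and an FDR of 0.211.

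**Figure D2:**
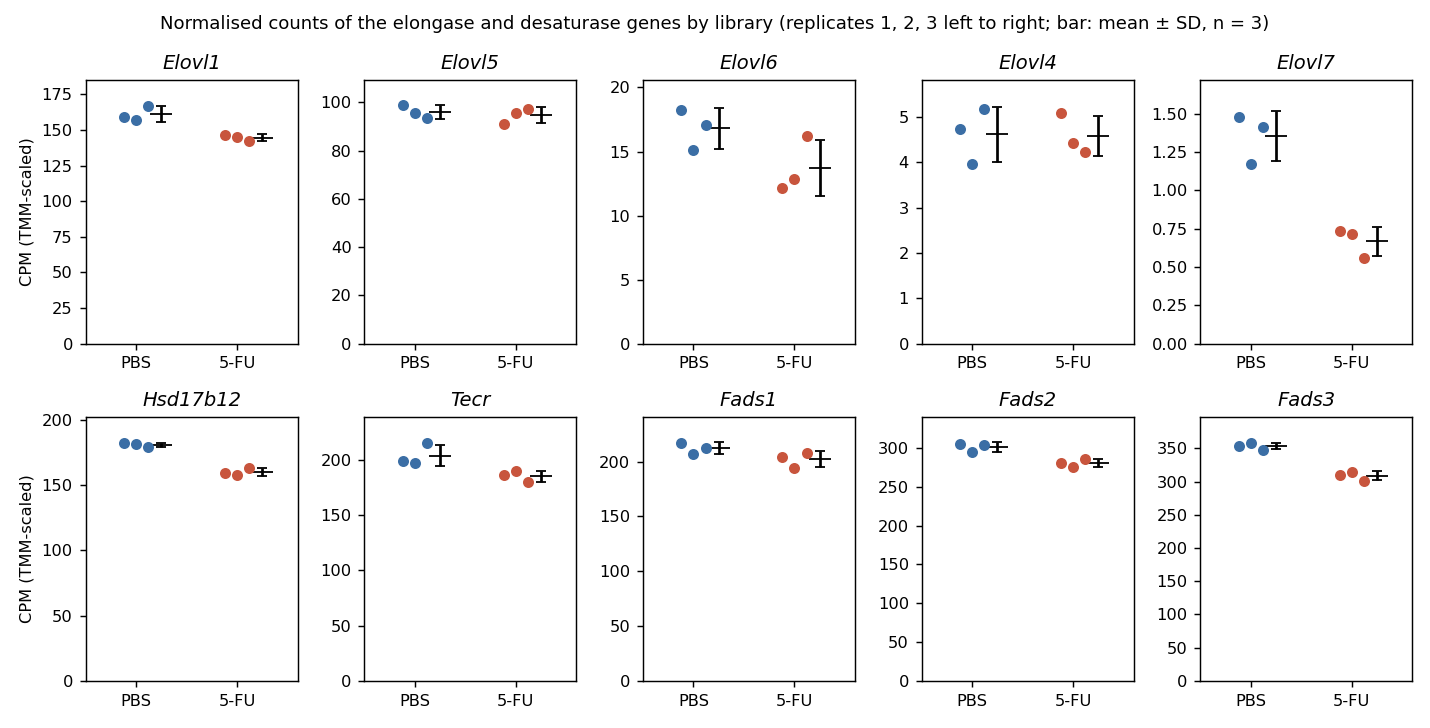
Normalised counts (CPM after TMM scaling, axes from 0) of each gene in the 3 PBS and 3 5-FU libraries, with the mean and SD beside them. The groups are apart for Elovl1, Elovl7, Hsd17b12, Tecr, Fads2 and Fads3 and overlap for Elovl4, Elovl5, Elovl6 and Fads1.

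The reductases of the cycle act on every chain, whichever ELOVL enzyme began it. Hsd17b12 (ENSMUSG00000027195), the 3-ketoacyl-CoA reductase, had 182, 181 and 179 CPM in PBS and 159, 157 and 163 CPM in 5-FU. The spread within a group was small, with an SD of 1.6 CPM in PBS and 2.8 CPM in 5-FU, and the groups were far apart relative to it. Hsd17b12 fell by 0.18 on the log2 scale (SE 0.039, 95% interval from -0.26 to -0.091, edgeR adjusted p = 0.0236). The call was kept without PBS replicate 3 and without 5-FU replicate 3 and lost in the other 4 refits without 1 library, with an adjusted p up to 0.107 without PBS replicate 2. On TPM values it was not called by limma (log2 difference -0.14, adjusted p = 0.0827, with a pseudocount of 1).

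Tecr (ENSMUSG00000031708), the trans-2-enoyl-CoA reductase, closes the cycle and also serves sphingosine breakdown. It had 199, 197 and 215 CPM in PBS and 186, 189 and 180 CPM in 5-FU. The groups did not overlap on this scale but did in TPM, where the PBS libraries ran from 337 to 361 and the 5-FU libraries from 315 to 338. The log2 fold change of -0.14 (SE 0.047) was not called (edgeR adjusted p = 0.0956), and it was called under none of the 16 alternatives.

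The 3 desaturase genes are next to each other on mouse chromosome 19, in the order Fads3, Fads2 and Fads1 among protein-coding genes of the RefSeq annotation. Fads1 (ENSMUSG00000010663), the delta-5 desaturase that forms arachidonic acid, had 217, 207 and 213 CPM in PBS and 204, 194 and 208 CPM in 5-FU. The highest 5-FU library lay above the lowest PBS library. Its log2 fold change of -0.071 had a 95% interval from -0.17 to 0.024 (edgeR adjusted p = 0.349). Fads2 (ENSMUSG00000024665), the delta-6 desaturase that starts the pathway, had 306, 294 and 304 CPM in PBS and 281, 275 and 286 CPM in 5-FU. Its groups were apart, but the log2 fold change of -0.10 (SE 0.040) was not called (edgeR adjusted p = 0.139).

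Fads3 (ENSMUSG00000024664), a homologue known for desaturating the sphingoid base of ceramides, gave the lowest p of the 10 genes. It had 354, 358 and 348 CPM in PBS and 310, 315 and 301 CPM in 5-FU, and each 5-FU library lay well below each PBS library. Fads3 fell by 0.19 on the log2 scale (SE 0.039, 95% interval from -0.28 to -0.11, edgeR adjusted p = 0.0154). It was called by all 10 alternatives that keep every library and the threshold, DESeq2 and limma on TPM included. Leaving out PBS replicate 2 ended the call (adjusted p = 0.0920), as did leaving out 5-FU replicate 3 (adjusted p = 0.0607), and it did not hold at an adjusted p under 0.01.

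**Figure D3:**
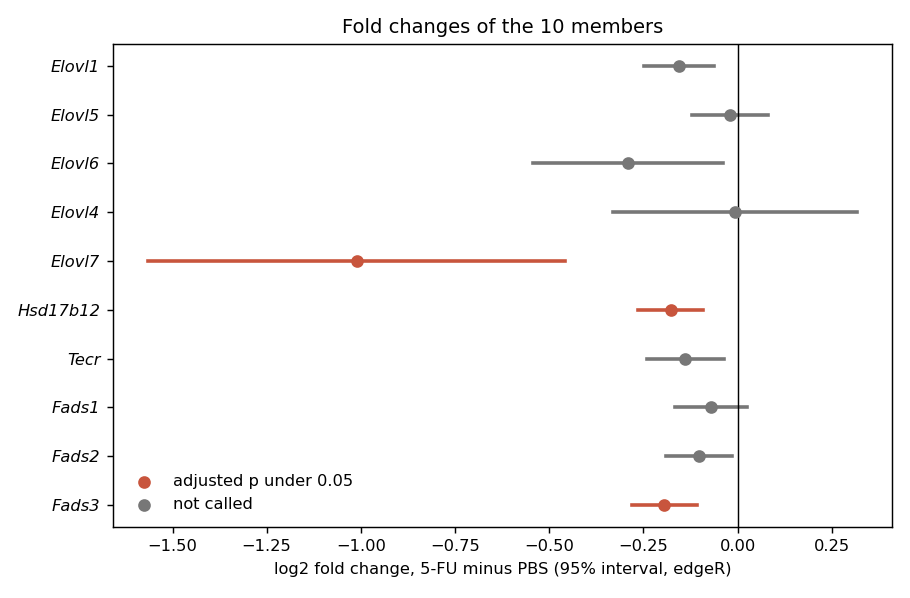
log2 fold change of each gene, 5-FU minus PBS, with its 95% interval from edgeR (not adjusted for the number of genes). All 10 points are left of 0, but those of Elovl4 and Elovl5 turn positive under some alternatives. The intervals of Elovl4, Elovl5 and Fads1 include 0, and Elovl7, the gene with the fewest reads, has the widest interval, from -1.56 to -0.46.

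Ratios between members within a library do not depend on library scaling. The TPM ratio of Fads3 to Fads1 was 1.88, 2.01 and 1.87 in PBS and 1.75, 1.76 and 1.64 in 5-FU. Each 5-FU ratio was below each PBS ratio, and the same held for Fads3 to Fads2 (1.23 ± 0.050 and 1.13 ± 0.034), Elovl1 to Elovl5 (3.30 ± 0.19 and 2.99 ± 0.13) and Elovl7 to Elovl6 (0.148 ± 0.0074 and 0.0969 ± 0.036). The ratios of Fads2 to Fads1, Hsd17b12 to Tecr and Elovl6 to Elovl5 overlapped between the groups. In a two-sided exact permutation test, 3 libraries against 3 cannot give a p below 0.10, and each of the 4 ratios that did not overlap reached that value (p = 0.175 after adjustment over the 7 ratios compared).

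**Figure D4:**
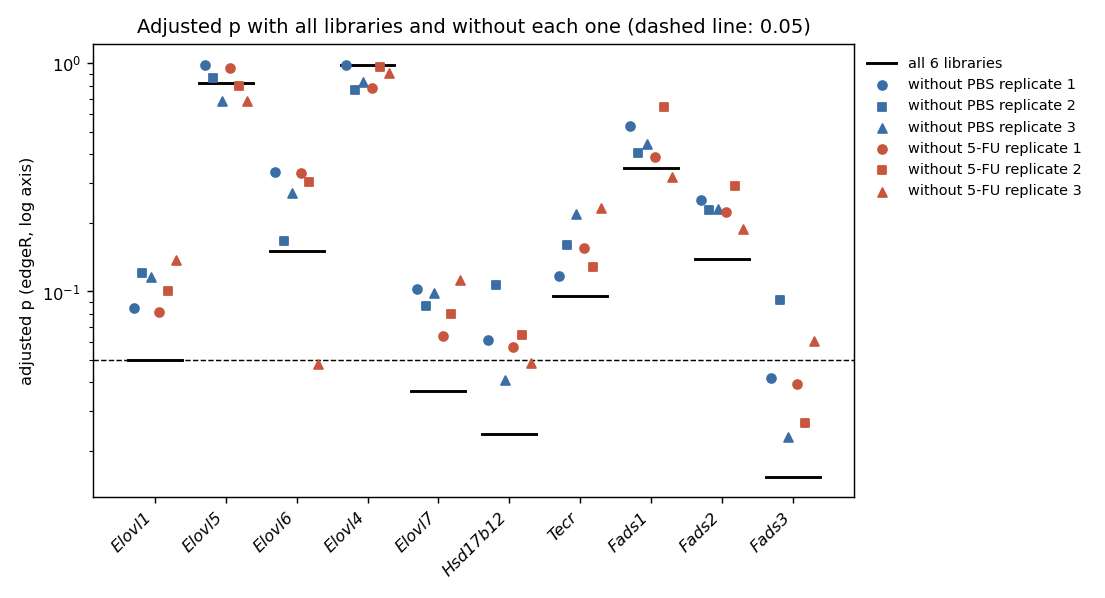
Adjusted p of each gene (edgeR, log axis) with all 6 libraries (black bars) and without each library in turn (points); the dashed line marks 0.05. Fads3 stays below the line in 4 of 6 refits, Hsd17b12 in 2 and Elovl7 in none, while Elovl6 passes it once, without 5-FU replicate 3.

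The genes whose levels over the 6 libraries ran most like those of the called members were found by the root mean square difference of centred log2 CPM, among 11298 candidates. For Elovl7 they were Rec114 (0.17), Artn (0.17) and Bend3 (0.17), all 3 of which were called lower in 5-FU. For Fads3 they were Polr3e, Clcc1 and Prss23 (0.015 to 0.018), of which Prss23 was called. For Hsd17b12 they were Ptk2, Rassf1 and Trub2 (0.015 to 0.017), of which Ptk2 was called. Nearness here says only that the 6 values moved alike. A fall in 5-FU was part of that likeness, so the calls of these genes add no support.

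Of 89 genes in 9 lists around elongation and desaturation, 75 were tested, 4 rose and 1 fell, with 45 negative and 30 positive fold changes and a median of -0.026. The share called, 6.67%, was near the 7.14% of all genes tested, and 60.0% of the fold changes were negative, against 49.7% over all genes. An unadjusted p under 0.05 (edgeR) was found in 20 of the 75. It was common over all 12135 genes tested, where at least 2865 and fewer than 2950 had it. Among the lists it was found in 6 of 14 regulators, 4 of 9 peroxisomal genes and 3 of 11 genes that activate or bind fatty acids. Of the other enzymes of the cycle, none of 5 tested was called, and 1 had an unadjusted p under 0.05. The dehydratase gene Hacd1 stood at 147 ± 1.5 and 149 ± 17 TPM, Hacd3 at 37.5 ± 1.5 and 37.9 ± 1.5 TPM, and Hacd4 gave the lowest p (log2 fold change -0.24, edgeR adjusted p = 0.113). The elongase Elovl3 had 4 to 10 counts per library and was not tested. Elovl2, which extends long polyunsaturated chains, had 0 counts in all 6 libraries, which allows up to 3 counts per library.

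Desaturation draws electrons through cytochrome b5 and its reductases, and none of 6 such genes tested was called. Cyb5b gave the lowest p, with 242 ± 9.4 CPM in PBS and 219 ± 3.6 CPM in 5-FU (log2 fold change -0.15, edgeR adjusted p = 0.0630). Of these genes 2 had an unadjusted p under 0.05. One was lower by DESeq2. Of the other lipid desaturases none of 5 was called, and none had an unadjusted p under 0.05. Of the stearoyl-CoA desaturase genes, Scd1 and Scd2 exceeded every FADS gene in level while Scd3 and Scd4 were near 0, with Scd2 at 818 ± 75 and 779 ± 51 TPM and Scd1 at 478 ± 41 and 511 ± 48 TPM. Scd2 gave the lowest p of this list (log2 fold change -0.11, edgeR adjusted p = 0.301).

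None of 8 genes tested in the supply of malonyl-CoA and palmitate was called, the lowest p being that of Slc25a1, the mitochondrial citrate carrier (log2 fold change -0.18, edgeR adjusted p = 0.0579). Of these 8 genes 3 had an unadjusted p under 0.05, 1 was called lower without the filter on low counts and 2 were called lower with the replicate number as a block. Among 11 genes that activate or bind fatty acids, Slc27a3, an acyl-CoA synthetase, rose from 6.51 ± 0.57 to 8.71 ± 0.53 CPM (log2 fold change 0.42, edgeR adjusted p = 0.0460). Its call was lost in each of the 6 refits without 1 library.

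Among 14 regulators tested, Insig1, which holds SREBP in the endoplasmic reticulum and is itself an SREBP target, fell from 105 ± 2.4 to 88.7 ± 1.9 CPM (log2 fold change -0.25, edgeR adjusted p = 0.00699). It was called in all 6 refits without 1 library. Mlx, the partner of the glucose-responsive factors of lipogenesis, rose (log2 fold change 0.22, edgeR adjusted p = 0.0327), and Rxra, the partner of the liver X and PPAR receptors, rose as well (0.16, edgeR adjusted p = 0.0450). Both calls were lost in each of the 6 refits without 1 library. Srebf1 stood at 131 ± 3.6 CPM in PBS and 130.1 ± 2.7 CPM in 5-FU (log2 fold change -0.0055, 95% interval from -0.099 to 0.088).

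Of 9 peroxisomal genes, which shorten very long chains and complete docosahexaenoic acid, Acox3, an oxidase of branched acyl-CoA, rose from 56.9 ± 3.0 to 67.1 ± 2.0 CPM (log2 fold change 0.24, edgeR adjusted p = 0.0241). Of the 6 refits without 1 library, 2 called it. No ceramide synthase of 4 tested was called, and Cers2, which uses the chains that Elovl1 makes, gave the lowest p (log2 fold change -0.066, edgeR adjusted p = 0.377). None of 13 genes of acyl remodelling and release was called, with Pla2g6, a phospholipase, giving the lowest p (0.13, edgeR adjusted p = 0.161).

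**Figure D5:**
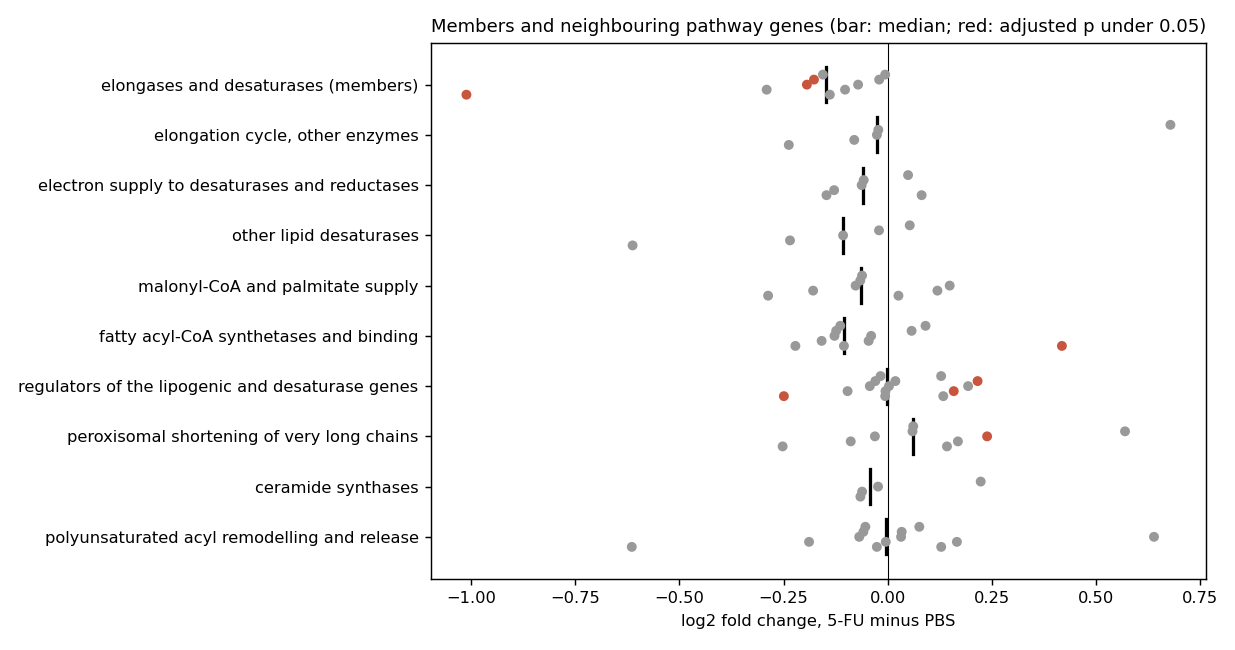
log2 fold change, 5-FU minus PBS, of the 10 members and of the tested genes of the 9 neighbouring lists, 1 point per gene, with the median of each row as a bar and called genes in red. The members lie at or below 0 with a median of -0.15, and the medians of the other rows lie between -0.11 and 0.061.

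The 6 libraries held 19583312 to 23016735 estimated counts. Libraries of a group differed by more than sampling noise, with a mean chi-square per gene of 3.23 to 8.13. All 7 myoblast markers reached 1 TPM, and their summed level was 3590 to 3663 TPM in PBS and 3954 to 4454 TPM in 5-FU. One of them was called, Cdh15, which was higher. The 11 myotube markers summed to 1479 to 1772 TPM in PBS and 1442 to 2494 TPM in 5-FU. Only Myh2 was called, lower in 5-FU, at a mean of 28.0 counts per library. Myotube markers that were not called went both ways. Mymx (log2 fold change 0.58), Mymk (0.40) and Myog (0.33) were higher, and Myh8 (-0.70) and Myh1 (-0.53) were lower. Liver markers summed to at most 0.092 TPM in a library, with Alb and Ttr at 0 counts, and endothelial markers to at most 0.347 TPM. Epithelial markers summed to 1.18 to 1.77 TPM in PBS and 1.26 to 1.73 TPM in 5-FU, most of it Cdh1, with Epcam at 0 counts. Immune markers summed to at most 6.35 TPM in PBS and 8.25 TPM in 5-FU, most of it Cd68, which was not called. Among 5 adipocyte markers Adipoq, Plin1 and Cidec were near 0, and the summed level was 33.2 to 34.4 TPM in PBS and 28.9 to 31.7 TPM in 5-FU, most of it Cebpa. The part of these shifts in the results was not tested.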

How the data were processed

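Messenger RNA libraries were made with a NEBNext Ultra kit after Trizol extraction, per the labels' protocols. The submitters' processing notes list StringTie 1.3.1 and give it no role. The aligner, the counter, the build and the annotation were not given in the sources used here. Per the file headers, the authors deposited estimated counts and TPM for each gene and library, and a second table with the authors' mean TPM, log2 ratio, p-value and FDR. No strand step is described. Of the counts of a library 7.31% to 8.04% were not whole numbers (tolerance 0.005), and none of those of the members.

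Estimated counts were rounded, and edgeR 4.0.16 was run on them in R 4.3.3: filterByExpr (at least 10 counts in at least 3 libraries, 15 in total) kept 12135 genes, TMM factors lay between 0.995 and 1.01, and the quasi-likelihood F test (two-sided) set 5-FU against PBS, with p-values adjusted after Benjamini and Hochberg across the tested genes. The SE is the size of the log2 fold change over the square root of F. The fit was tested on simulated data. TPM was used for levels between genes.

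The members, lists and rules were chosen with earlier results of these data known. Named genes were the 10 members, called genes of 9 lists or else the gene with the lowest p, and the 3 genes nearest in pattern to each called member (mean of at least 1 CPM, prior count 2). Hacd1, Hacd3, Scd1, Scd3, Scd4, Srebf1, Cdc20, Elovl2 and Elovl3 were named after their values were seen. Since no label says that the replicates were grown as separate cultures, the p-values cover the spread among these 6 libraries, which may be technical. Alternatives used DESeq2 1.42.0, limma 3.58.1 (voom, or log2 TPM with pseudocounts of 1 and 0.1 and a mean of at least 1 TPM), other scaling and filters, the replicate number as a block, an adjusted p under 0.01 and leaving out each library.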

Additional observations from a re-analysis of the deposited data

How the results depend on the processing

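Of the 10 members 3 were called, and 0 to 2 without 1 library (0 without PBS replicate 2), 1 on either TPM scale, log2(TPM + 1) or log2(TPM + 0.1) with limma, where Elovl7 lay below the filter, and 0 at an adjusted p under 0.01. With RLE factors, with upper-quartile factors and without the filter on low counts 4 were called, Elovl1 being added. DESeq2 and the filter at a mean of 5 CPM called 3, with Elovl1 in place of Elovl7. No alternative called a member higher. Over all genes 866 were called, and 249 to 656 without 1 library (249 without PBS replicate 2), 528 and 513 with limma on TPM (186 of the 528 lower, against 396 of the 866), and 239 at an adjusted p under 0.01. Of the pathway genes 5 were called, and 1 to 2 without 1 library, 3 by DESeq2, 2 and 1 with limma on TPM, and 1 at an adjusted p under 0.01. Fits without 1 library hold fewer samples; for the other shifts the cause was not tested.

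Fold changes near 0 turned sign for Elovl4 (0.0083 with library size alone, 0.0023 with limma-voom, 0.037 and 0.050 with limma on TPM, and -0.11 to 0.080 without 1 library) and Elovl5 (0.019 and 0.020 with limma on TPM, and -0.045 to 0.0072 without 1 library). The other 8 kept a negative sign under each alternative that gave them a value. Elovl1 was called in 5 of 10 alternatives that keep all libraries and in 0 of 6 without 1. With the replicate number as a block 1199 genes, 3 members and 6 pathway genes were called. Of these pathway genes 2 were in the supply of malonyl-CoA and palmitate, where none was called in the main fit. Deviations of same-numbered libraries correlated at -0.0016, 0.087 and 0.13, and those of differently numbered libraries at -0.13 to 0.044. Not every library correlated best with its own number. Whether same-numbered libraries were paired cannot be told from 3 pairs.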

Other observations

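Polyunsaturated chains made by these enzymes are substrates of cyclooxygenase and lipoxygenase, and both kinds of transcript were abundant in these muscle cells. Ptgs1, the constitutive cyclooxygenase, stood at 402 ± 20 TPM in PBS and 406 ± 24 TPM in 5-FU, and Alox5, a lipoxygenase best known from leukocytes, at 329 ± 17 and 339 ± 11 TPM (n = 3). Both exceeded each FADS gene in level. Of the immune markers, Ptprc had 5 counts and Cd3e had 6 in PBS replicate 1, and both had 0 in every other library. Cd68 was at 5.30 ± 0.92 TPM in PBS and 6.96 ± 1.3 TPM in 5-FU and was not called. Neither Ptgs1 (log2 fold change -0.026, edgeR adjusted p = 0.798) nor Alox5 (-0.0049, edgeR adjusted p = 0.960) was called, with 95% intervals from -0.14 to 0.089 and from -0.096 to 0.086. Ptgs1, Alox5, Ptprc, Cd3e and Cd68 were named after their values were seen.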
